A study of Homo sapiens with 8 samples.

Results

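The genes described here are a set of ER chaperones, folding enzymes and components of ER-associated degradation (ERAD), together with the sensors and transcription factors that control them. They were chosen by name from a list of 40 human genes, with the condition that a gene reached 1 FPKM (fragments scaled by exon length and library size) in at least 2 libraries. In the table of 58735 genes, 39 of the 40 stand under the listed symbol and VIMP stands under its current symbol SELENOS. Of the 40, 39 met the condition, out of 16239 genes of the whole table that did so. DERL3, a derlin like DERL1 and DERL2, did not: it was listed at 0 in 6 of 8 libraries and reached at most 0.0473 FPKM, and 77.0% of its exon bases overlap SMARCB1 on the opposite strand.

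The cells were HCT116, an established human colorectal carcinoma line, and RNA was measured in bulk in 8 libraries that form 4 groups of 2. Cells with a control shRNA (a short hairpin RNA) were kept for 24 h in DMEM with 20 mM glucose or with 0 mM glucose. Cells with MAPKAPK2 shRNA 1 and cells with MAPKAPK2 shRNA 2 had 20 mM glucose, and the sources used here do not give their culture time. All 4 groups therefore carried an shRNA. MAPKAPK2 encodes MK2, a kinase activated by p38 MAP kinases. The labels do not say whether the cells of an shRNA were a pool or a clone, nor whether replicates came from separate cultures. The p-values therefore cover the spread among these libraries alone, and that spread may be technical.

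Proteins that enter the ER are folded by the HSP70 chaperone BiP (HSPA5), the HSP90 homologue GRP94 (HSP90B1), the lectin chaperones of the calnexin cycle and the disulfide isomerases, and those that fail are moved back to the cytosol for degradation by the proteasome. When unfolded protein accumulates, 3 sensors in the ER membrane, IRE1 (ERN1), ATF6 and PERK (EIF2AK3), start the unfolded protein response. IRE1 splices the mRNA of the transcription factor XBP1, ATF6 is cleaved into a transcription factor, and PERK slows translation. Glucose is needed for the glycans that are added to proteins in the ER, and BiP and GRP94 were first known as glucose-regulated proteins.

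Reads in genes numbered 14252316 to 19975449 per library, with 13821 to 14611 genes at 1 FPKM or more. MAPKAPK2 measured 16.2 to 18.9 FPKM in the 4 control libraries, 2.77 and 2.54 with shRNA 1, and 0.982 and 0.800 with shRNA 2. All 6 epithelial markers that were checked passed the filter, with summed levels of 1252 to 1834 FPKM, and of 9 markers of blood, stromal and endothelial cells 1 passed (COL1A1, at most 6.72 FPKM). On the third principal component, with 11.4% of the variance, the other 6 libraries lay at −16.7 to 0.964, while 1 library at 0 mM (the second, 32.4) and 1 with shRNA 2 (the second, 18.4) lay beyond them. The libraries of a group differed by more than counting error, with a chi-square per gene of 6.22 for the 20 mM controls, 12.1 at 0 mM, 7.26 with shRNA 1 and 31.2 with shRNA 2. For the 39 genes the median difference between the libraries of a group was 0.07, 0.18, 0.09 and 0.22 on the log2 scale in the same order. At 0 mM 28 of the 39 were higher in the second library. In bulk RNA, fewer cells of a type and less RNA per cell cannot be told apart.

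Promoters are shown first, because the set is known for ER stress response elements and because HSPA5 and HERPUD1 each carry one. These 2 members passed an adjusted p under 0.05 at 0 mM in 1 of the 2 fits given below. DNAJB9, which rose 1.545 times by the ratio of mean FPKM beside 1.55 for HSPA5, had no match to the elements searched. RefSeq promoters (GRCh38.p14) were matched for 37 of the 40 genes, all but DERL1, DERL3 and PDIA3, and the 250 bases before each annotated start were searched on both strands. The ER stress response element, ERSE, was searched as CCAAT and CCACG with 9 bases of any kind between them, and ERSE-II as ATTGG and CCACG with 1 base between them. The HSPA5 window lies at chr9:125241344-125241593 on the minus strand and is printed 5′ to 3′ with the fixed letters of its ERSE, 66 to 48 bases before the start, in capitals. The HERPUD1 sequence lies at chr16:56931892-56932047 on the plus strand, and capitals mark its ERSE-II, 117 to 107 bases before the RefSeq start. It is cut to 156 bases, since the gene as annotated in the FPKM table begins right after it.
HSPA5: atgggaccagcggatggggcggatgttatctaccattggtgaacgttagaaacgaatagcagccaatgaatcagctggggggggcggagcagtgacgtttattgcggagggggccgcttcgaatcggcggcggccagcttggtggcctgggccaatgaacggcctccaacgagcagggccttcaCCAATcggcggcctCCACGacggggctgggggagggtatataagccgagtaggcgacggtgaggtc
HERPUD1: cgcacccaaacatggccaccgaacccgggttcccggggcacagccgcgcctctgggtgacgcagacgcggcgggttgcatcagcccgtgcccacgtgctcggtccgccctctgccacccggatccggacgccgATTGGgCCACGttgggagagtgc

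Such matches were rare among all genes and frequent in the set. The list was drawn up from known sensors and targets of the unfolded protein response. The excess follows from how the genes were chosen and is not a result of these data. ERSE was found for 7 of 37 members (CALR, CANX, CRELD2, HSP90B1, HSPA5, PDIA6 and XBP1) and for 0.0916% of the 27305 genes with a promoter in the table. The stretches of CANX, HSP90B1, PDIA6 and XBP1 overlap annotated exons of the same gene and are not printed. For CANX, CRELD2, HSP90B1 and PDIA6 the match lies inside the gene, before an annotated start within it. The CRELD2 stretch overlaps no annotated exon and is printed below. ERSE-II was found for 3 of 37 (HERPUD1, HYOU1 and SDF2L1) and for 0.0659% of all genes. Together they mark 10 of 37 members, 27.0%, beside 0.157% of all genes. The core of the unfolded protein response element, TGACGTG, was found for 2 of 37 (DNAJC10 and HYOU1) and 2.05% of all genes, and in HYOU1 it overlaps an ERSE-II. A match is a run of letters and says nothing about binding. The stretches below show the element in 4 other members, read along the gene's own strand, with capitals for the fixed letters. The 3 elements whose capitals begin with CGTGG lie on the opposite strand, as does that of HYOU1, where the capitals also hold the TGACGTG core.
CALR, chr19:12938372-12938414: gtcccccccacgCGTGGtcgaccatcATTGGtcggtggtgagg
CRELD2, chr22:49918542-49918584: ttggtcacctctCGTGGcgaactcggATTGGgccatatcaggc
SDF2L1, chr22:21642102-21642136: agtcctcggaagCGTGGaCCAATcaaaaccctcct
HYOU1, chr11:119057368-119057402: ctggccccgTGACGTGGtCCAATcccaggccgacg

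In cells with the control shRNA at 20 mM glucose the set was expressed above most genes, with a median of 12.8 FPKM beside 4.34 FPKM over all tested genes. The most abundant transcript per length was CALR, which encodes calreticulin, a calcium-binding lectin chaperone, at 293 FPKM ± 0.293 (SD, n = 2). HSPA5 followed at 226 ± 5.23, then HSP90B1 at 185 ± 15.2, the disulfide isomerase gene P4HB at 150.1 ± 4.57 and the calnexin gene CANX at 118 ± 0.230. These 5 neighbours were separated by more than their SDs. The regulators stood lower: XBP1 at 30.6 ± 2.35, ATF6 at 6.85 ± 0.140 and ERN1, the least abundant member tested, at 1.80 ± 0.173. Among ERAD genes the range ran from OS9 (17.5 ± 0.727), a lectin that hands glycoproteins to the ubiquitin ligase, to EDEM3 (2.41 ± 0.190), which trims mannose from misfolded glycoproteins.

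**Figure D1:**
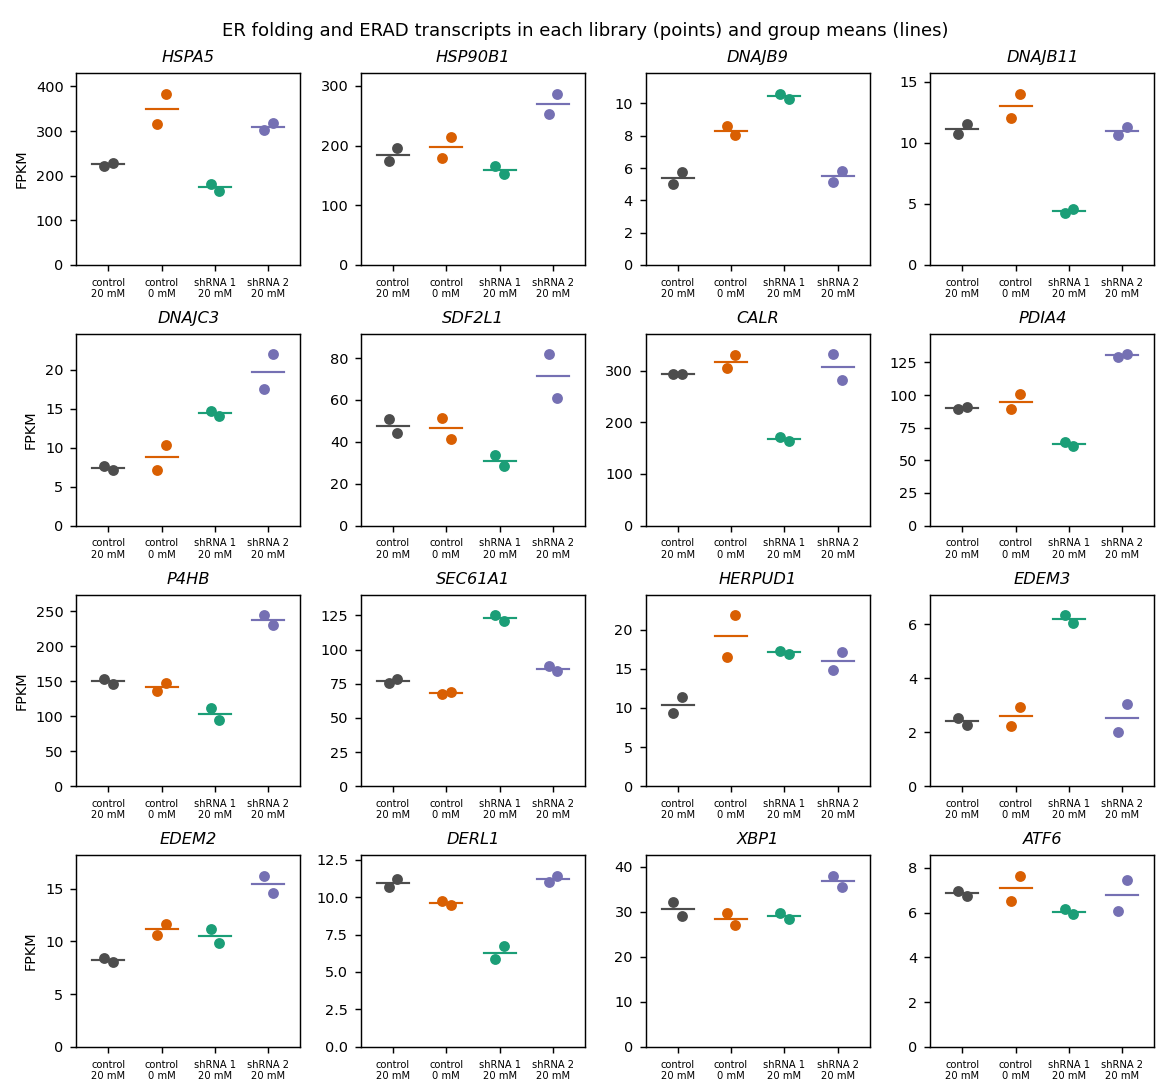
Levels of 16 of the genes in FPKM (vertical axes, each from 0) in the 4 groups (horizontal axes); each point is a library and each line the mean of 2. HSPA5, HERPUD1, DNAJB9, DNAJB11, CALR and EDEM2 lie higher in both 0 mM libraries than in both 20 mM controls, as do 19.1% of all genes. SEC61A1 and DERL1 lie lower there, as do 22.2% of all genes. HSPA5, HSP90B1, DNAJB11, SDF2L1, CALR, PDIA4, P4HB and DERL1 lie lowest in both shRNA 1 libraries. Of all genes 34.0% lie lower in both shRNA 1 libraries than in both 20 mM controls.

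The comparison of 0 mM with 20 mM glucose in control shRNA cells asked how the set responds to 24 h without glucose. HSPA5 and HERPUD1, which encodes a scaffold of the ERAD ubiquitin ligase, rose 1.55 and 1.86 times by the ratio of mean FPKM and passed when limma voom was run on reads worked back from the FPKM (the read-based fit). On log2(FPKM + 1), the scale planned for limma, neither passed: this planned fit called 0 of 39 members and 0% of all genes tested (0 of 16239). In it 6 members and 1421 of all genes had an unadjusted p under 0.05, and the lowest adjusted p was 0.294 among members and 0.0863 among all genes. The read-based fit called 2 of 39 members, both up, beside 0.172% of all genes (0.154% up and 0.0185% down), and 7 members had an unadjusted p under 0.05. The other chaperones, isomerases and ERAD genes did not pass in either fit, and the median log2 fold change of the 39 was 0.04, beside −0.01 over all genes, with 24 members above 0 and 15 below. The libraries of the 2 groups did not overlap for 13 members higher and 4 lower at 0 mM, beside 41.3% of all genes (19.1% higher and 22.2% lower), so a lack of overlap was common.

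Of the sensors and transcription factors, 0 of 4 passed in either limma fit, with 0 at an unadjusted p under 0.05. XBP1 measured 32.3 and 28.98 FPKM at 20 mM and 29.7 and 27.0 at 0 mM, a log2 fold change of −0.11 (SE 0.10, adjusted p = 0.815). ATF6 measured 6.95 and 6.75 against 6.52 and 7.64 FPKM (0.04, SE 0.12, adjusted p = 0.960). ERN1 measured 1.92 and 1.68 against 1.68 and 1.87 FPKM (−0.01, SE 0.12, adjusted p = 0.992). For all 3 the libraries at 0 mM and 20 mM overlapped. CREB3L2, a transcription factor of the same family as ATF6, went from a mean of 5.43 to 6.26 FPKM with a log2 fold change of 0.16 (SE 0.18). The table gives 1 value per gene, so the spliced form of XBP1 mRNA was not analysed here.

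Among the HSP70 and HSP90 chaperones and cofactors, 1 of 10 passed the read-based fit. HSPA5 (chr9:125234853-125241330, minus strand) measured 222 and 229 FPKM at 20 mM and 316 and 384 FPKM at 0 mM. Its log2 fold change was 0.63 in the read-based fit (SE 0.11, adjusted p = 0.0454) and 0.62 in the planned fit (SE 0.12, adjusted p = 0.321). Both libraries at 0 mM lay above both at 20 mM. DNAJB9, an HSP40 cochaperone of BiP that also restrains IRE1, measured 5.02 and 5.76 FPKM at 20 mM and 8.60 and 8.05 at 0 mM, also without overlap. It did not pass, with a log2 fold change of 0.55 (SE 0.10, adjusted p = 0.294) in the planned fit and 0.63 (adjusted p = 0.224) by reads. CRELD2, a secreted ER stress protein, measured 6.63 and 7.01 against 8.75 and 8.79 FPKM and did not pass either (0.32, SE 0.16, adjusted p = 0.638). The other 7 had log2 fold changes between −0.03 for SDF2L1, a cofactor of BiP, and 0.21 for DNAJB11, and HSP90B1 was at 0.09 (SE 0.13).

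In the calnexin cycle and among the disulfide and prolyl isomerases 0 of 9 members passed in either limma fit and 0 had an unadjusted p under 0.05. Their log2 fold changes lay between −0.08 for P4HB and 0.35 for FKBP2, a prolyl isomerase whose libraries at 0 mM measured 42.95 and 32.5 FPKM. CALR was at 0.11 (SE 0.11) and CANX at −0.06 (SE 0.14). The translocon, the channel through which nascent proteins enter the ER, also had 0 of 4 passing in either limma fit, with 0 at an unadjusted p under 0.05. SEC61A1, its pore subunit, measured 75.5 and 78.2 FPKM at 20 mM and 67.8 and 68.9 at 0 mM (−0.17, SE 0.08, adjusted p = 0.628). Both 0 mM libraries of SEC61A1 were the lower pair.

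Of 11 tested ERAD genes, 1 passed the read-based fit. HERPUD1 (chr16:56932048-56944863, plus strand) measured 9.30 and 11.4 FPKM at 20 mM and 16.6 and 21.9 FPKM at 0 mM. The log2 fold change was 0.88 in the read-based fit (SE 0.15, adjusted p = 0.0361) and 0.83 in the planned fit (SE 0.16, adjusted p = 0.294). The groups did not overlap. EDEM2 and EDEM1, which help to commit misfolded glycoproteins to degradation, measured 8.41 and 8.05 against 10.6 and 11.7 FPKM and 6.15 and 5.62 against 7.05 and 9.14 FPKM. Their log2 fold changes were both 0.39, with adjusted p-values of 0.408 and 0.519. SEL1L, the partner of the ubiquitin ligase HRD1, measured 6.47 and 5.85 against 7.43 and 9.25 FPKM (0.38, SE 0.15, adjusted p = 0.556). All 3 lay higher in both 0 mM libraries, as did 19.1% of all genes, and passed neither fit. The other 7 ranged from −0.21 (SELENOS, which anchors the p97 ATPase) to 0.18 (SYVN1, the ligase HRD1 itself), and the calcium-regulating membrane protein gene WFS1 was at −0.14 (SE 0.14).

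Both calls at 0 mM depended on single libraries. The read-based count was 0 without either 20 mM control, without the second 0 mM library or without either shRNA 1 library, 1 (HERPUD1) without the first 0 mM library, and 3 (DNAJB9 added) without either shRNA 2 library. The calls over all genes moved with it, from 28 to 0 without either 20 mM control, 1 without the second and 6 without the first 0 mM library, 7 without either shRNA 1 library, and 196 and 194 without the first or the second shRNA 2 library. The read-based log2 fold change stayed at 0.48 to 0.77 for HSPA5 and at 0.69 to 1.09 for HERPUD1 in these 8 fits, and was lowest without the second 0 mM library. That library stood apart from the rest, and its part in the result was not tested beyond leaving it out. Without it the median of the 39 in the planned fit was −0.04, and without the first 0 mM library it was 0.15.

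**Figure D2:**
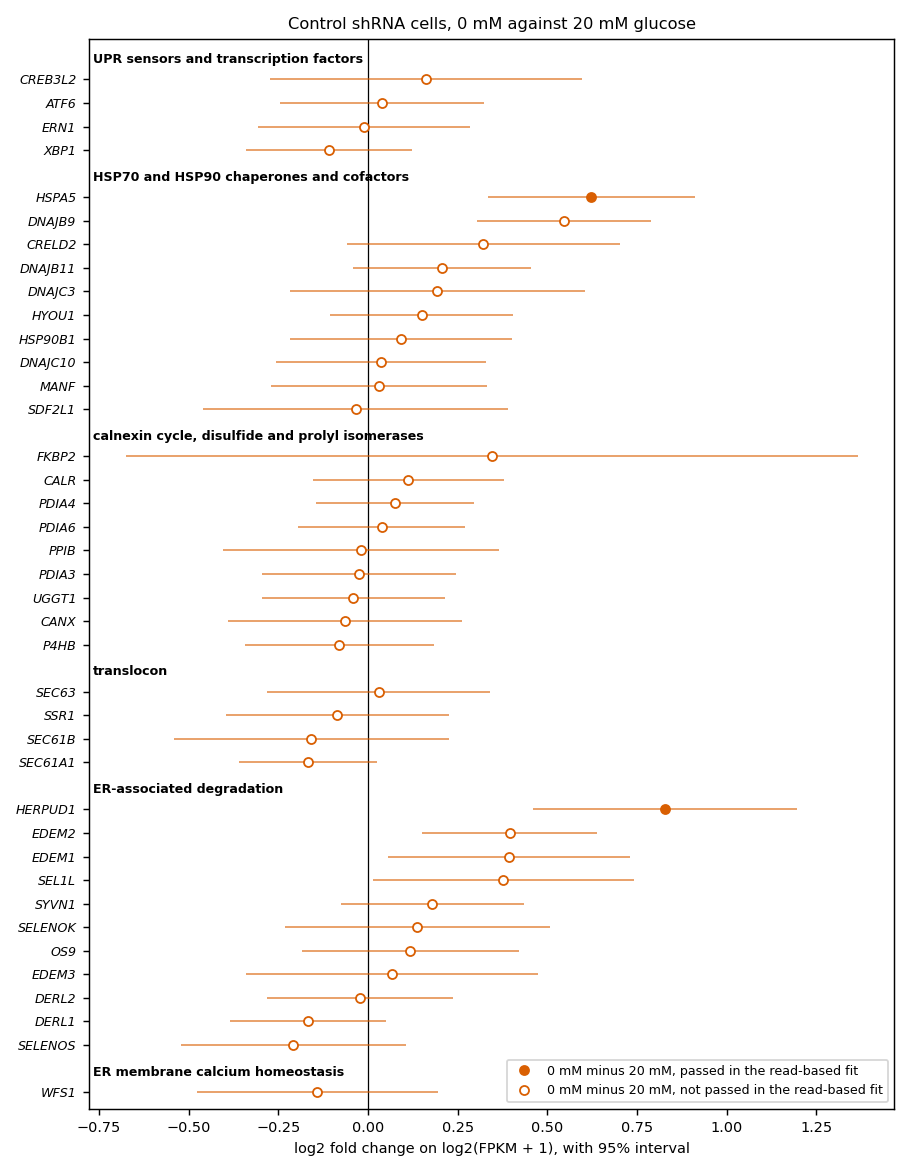
Log2 fold change of each tested gene (points, on log2(FPKM + 1), planned limma fit) with its 95% interval for 0 mM minus 20 mM glucose, 2 libraries a group, grouped by role. Filled points, HSPA5 and HERPUD1, passed in the read-based fit; open points did not, and 0 passed in the planned fit.

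Each MAPKAPK2 shRNA was compared with the same 2 control shRNA libraries at 20 mM glucose, so the values of both shRNAs share their controls. With shRNA 1 the set moved in both directions. EDEM3, DNAJC3, DNAJB9 and SEC61A1 rose, and the BiP cofactor gene DNAJB11, CALR, DERL1, P4HB and PDIA4 fell, by log2 fold changes of 1.08 down to −1.16. In the planned limma fit 14 of 39 members passed (35.9%), 8 up and 6 down, beside 19.8% of all genes (9.35% up and 10.5% down). Highly expressed genes passed more often: in a fit to genes of at least 5 FPKM in 2 libraries, 18 of 38 members (47.4%) and 33.3% of all genes passed. The median log2 fold change was 0.05, beside −0.01 over all genes, with 20 members above 0. Quantile normalization gave 11 up and 5 down, and the read-based fit 10 up and 10 down (20 of 39, beside 25.5% of all genes). The planned count was 6 and 5 without the first or the second 20 mM control, 6 and 5 without the first or the second shRNA 1 library, and 20 without either shRNA 2 library. The calls over all genes moved alike, from 3222 to 942 and 1009, to 998 and 1057, and to 4046 and 4054.

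With shRNA 2 most of the changes were upward. DNAJC3, EDEM2, EDEM1, the disulfide isomerases PDIA3, P4HB, PDIA4 and PDIA6, HSP90B1, HSPA5 and HERPUD1 were among the genes that rose, and MANF, a secreted ER stress protein, fell. In the planned fit 15 of 39 members passed (38.5%), 14 up and 1 down, beside 18.8% of all genes (11.1% up and 7.73% down). In the fit to genes of at least 5 FPKM the shares were 47.4% of 38 members and 30.3% of all genes. The median log2 fold change of the 39 in the planned fit was 0.27, beside 0.01 over all genes, and 33 of 39 members stood above 0. Quantile normalization gave 11 up and 3 down, and the read-based fit 17 up and 2 down (19 of 39, beside 24.2% of all genes). Leaving out the first or the second 20 mM control gave planned counts of 2 and 3, leaving out either shRNA 1 library 9, and the count was 15 and 12 without the first or the second shRNA 2 library, and 3 in a fit to the groups of the comparison alone. Over all genes the calls went from 3055 to 1015 and 1152, to 2311 and 2310, to 3026 and 2656, and to 961 in the same order.

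The shRNAs were also compared directly. In the planned fit, whose spread comes from all 8 libraries, 20 of 39 members (51.3%) differed between shRNA 2 and shRNA 1, 16 higher with shRNA 2 and 4 lower, beside 22.2% of all genes (13.0% higher and 9.13% lower). In the fit to genes of at least 5 FPKM the shares were 55.3% of 38 members and 35.4% of all genes (22.6% higher and 12.8% lower). The read-based fit gave 23 (19 and 4), beside 28.4% of all genes. With no overlap between libraries stood 17 members higher and 15 lower with shRNA 1 than in the controls, beside 65.7% of all genes (31.7% and 34.0%). With shRNA 2 it was 24 higher and 4 lower, beside 57.4% of all genes (29.9% and 27.5%), and between shRNAs 21 higher and 5 lower with shRNA 2, beside 60.0% (32.0% and 27.9%). DNAJC3, HERPUD1 and SEC63 rose with each shRNA, P4HB and PDIA4 fell with shRNA 1 and rose with shRNA 2, and 15 members passed with neither. In planned fits without 1 library, the only one of these calls that held throughout was that of DNAJC3 with shRNA 2. In the read-based fit HSPA5 and SDF2L1 also fell with shRNA 1 and rose with shRNA 2, MANF fell with each, and 8 members passed with neither. The count between shRNAs was 11 and 10 without the first or the second shRNA 1 library and 18 and 21 without the first or the second shRNA 2 library, and 8 in a fit to the shRNA libraries alone. Over all genes it went from 3602 to 1384 and 1335, to 3004 and 3473, and to 1136.

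**Figure D3:**
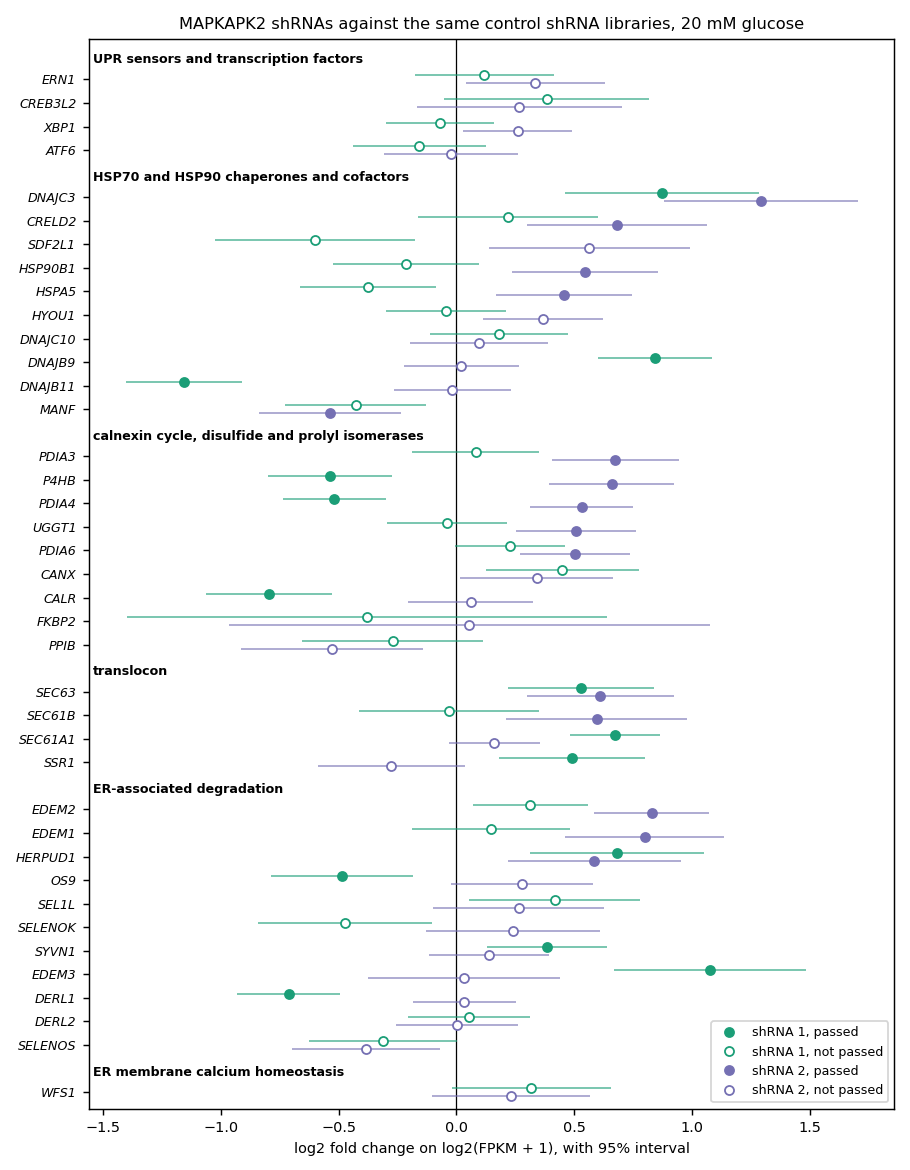
Log2 fold change of each tested gene on log2(FPKM + 1) in the planned limma fit, with 95% intervals, for shRNA 1 (green) and shRNA 2 (purple) against the same 2 control libraries; filled points passed at an adjusted p under 0.05. Most points of shRNA 2 lie right of 0 (33 of 39), and those of shRNA 1 lie on both sides (20 above 0).

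The sensors and transcription factors did not pass with either shRNA in the planned fit. XBP1 measured 29.8 and 28.3 FPKM with shRNA 1 and 38.0 and 35.6 FPKM with shRNA 2, around 32.3 and 28.98 in the controls. Its log2 fold change was −0.07 (SE 0.10, adjusted p = 0.653) with shRNA 1 and 0.26 (SE 0.10, adjusted p = 0.115) with shRNA 2, and shRNA 2 exceeded shRNA 1 by 0.33 (adjusted p = 0.0518). That difference passed in the read-based fit (adjusted p = 0.0447). ATF6 measured 6.15 and 5.93 FPKM with shRNA 1 (−0.16, SE 0.12, adjusted p = 0.405) and 6.07 and 7.46 with shRNA 2 (−0.02, adjusted p = 0.927). The shRNA 2 libraries of ATF6 lay on either side of the controls. ERN1 measured 1.92 and 2.15 FPKM with shRNA 1 (0.12, SE 0.12) and 2.51 and 2.54 with shRNA 2. There its planned log2 fold change of 0.34 (SE 0.12, adjusted p = 0.112) did not pass, and its read-based value of 0.49 (SE 0.15, adjusted p = 0.0278) did. CREB3L2 was at 0.38 and 0.27 (SE 0.18 each) without passing.

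BiP and its cofactors gave the widest spread between genes of 1 role. HSPA5 measured 182 and 166 FPKM with shRNA 1 and 302 and 317 with shRNA 2. It rose with shRNA 2 (log2 fold change 0.46, SE 0.12, adjusted p = 0.0428) and stood lower with shRNA 1 (−0.38, SE 0.12, adjusted p = 0.0731), a fall that passed in the read-based fit (adjusted p = 0.0251). The control libraries, at 222 and 229, lay between both pairs, and the shRNAs differed by 0.83 (SE 0.12, adjusted p = 0.00488). In planned fits without 1 library the HSPA5 value with shRNA 2 ran from 0.42 to 0.49, and its call was lost in most of these fits. The calls of HSP90B1 and MANF with shRNA 2, and of OS9 and SSR1 with shRNA 1, were also lost in most of them. HSP90B1 followed the same order of group means, 159 FPKM ± 9.40 with shRNA 1, 185 ± 15.2 in the controls and 270.3 ± 23.4 with shRNA 2 (SD, n = 2), and rose with shRNA 2 (0.55, SE 0.13, adjusted p = 0.0296). SDF2L1 measured 33.6 and 28.4 FPKM with shRNA 1 and 81.8 and 60.7 with shRNA 2, against 50.8 and 44.1 in the controls. It passed between shRNAs (1.16, SE 0.18, adjusted p = 0.00593) and against the controls in the read-based fit. All 3 genes were lower than the controls in both shRNA 1 libraries, as were 34.0% of all genes, and higher in both shRNA 2 libraries, as were 29.9%.

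The J-domain cofactors, which stimulate BiP's ATPase, did not move together. DNAJB11 measured 4.25 and 4.61 FPKM with shRNA 1 and 10.7 and 11.3 with shRNA 2, against 10.7 and 11.5 in the controls. Its log2 fold change was −1.16 with shRNA 1 (SE 0.10, adjusted p = 0.00148), the largest fall of the set in that comparison, and −0.02 with shRNA 2 (adjusted p = 0.935). DNAJB9 measured 10.6 and 10.3 FPKM with shRNA 1 and 5.16 and 5.80 with shRNA 2, against 5.02 and 5.76 in the controls. It rose with shRNA 1 (0.84, SE 0.10, adjusted p = 0.00309) and was at 0.02 with shRNA 2. The shRNA 2 libraries of both genes overlapped the controls. DNAJC3, which is also known as an inhibitor of PERK, measured 14.8 and 14.1 FPKM with shRNA 1 and 17.5 and 21.9 with shRNA 2, against 7.69 and 7.15. It rose with each shRNA, by 0.87 (SE 0.17, adjusted p = 0.0159) and 1.29 (SE 0.17, adjusted p = 0.00393), and all 4 libraries lay above both controls. DNAJC10, an ER disulfide reductase with a J domain, was at 0.18 and 0.09 without passing.

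The secreted factors split as well. MANF measured 18.9 and 20.1 FPKM with shRNA 1 and 20.3 and 16.0 with shRNA 2, below 26.2 and 27.0 in the controls. It fell with shRNA 2 (−0.54, SE 0.13, adjusted p = 0.0285), and with shRNA 1 in the read-based fit (adjusted p = 0.0568 planned, 0.0294 read-based). CRELD2 measured 8.26 and 7.94 FPKM with shRNA 1 (0.22, adjusted p = 0.387) and 13.97 and 9.49 with shRNA 2, where it rose (0.68, SE 0.16, adjusted p = 0.0281). The shRNA 2 libraries of CRELD2 were both above the controls but far apart, and the value was 0.42 without the first and 0.94 without the second of them, with a pass in 2 of 8 fits without a library. HYOU1, a large HSP70 that exchanges nucleotides on BiP, was at −0.04 and 0.37 (SE 0.11) and passed between shRNAs (0.41, adjusted p = 0.0360).

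In the calnexin cycle calreticulin and calnexin did not follow each other. CALR measured 172 and 165 FPKM with shRNA 1 and 332 and 282 with shRNA 2, against 293 and 294 in the controls. It fell with shRNA 1 (−0.80, SE 0.11, adjusted p = 0.00504) and was at 0.06 with shRNA 2 (adjusted p = 0.759). CANX stood at means of 162 FPKM ± 4.00 with shRNA 1 and 151 ± 22.9 with shRNA 2 (SD, n = 2), above 118 in the controls. Its log2 fold changes of 0.45 and 0.34 (SE 0.14 each) did not pass in the planned fit, and the first passed in the read-based fit. UGGT1, which reglucosylates unfolded glycoproteins for another round with the lectins, measured 9.71 and 10.6 FPKM with shRNA 1 (−0.04, adjusted p = 0.830) and 14.1 and 16.7 with shRNA 2 (0.51, SE 0.11, adjusted p = 0.0193), against 10.5 in each control library.

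The disulfide isomerases, which form and rearrange disulfide bonds, rose with shRNA 2 in all 4 cases. P4HB measured 245 and 230.2 FPKM with shRNA 2, against 153 and 147 in the controls (0.66, SE 0.11, adjusted p = 0.00886). PDIA4 measured 129.5 and 131 against 89.1 and 90.7 (0.53, SE 0.09, adjusted p = 0.00987). PDIA3, the isomerase that works with the lectin chaperones, measured 118.0 and 129.5 against 72.2 and 82.4 (0.67, SE 0.11, adjusted p = 0.00883). PDIA6 went from 29.8 and 29.9 to 45.1 and 40.6 FPKM (0.50, SE 0.10, adjusted p = 0.0147), and in all 4 genes both shRNA 2 libraries lay above both controls, as they did for 29.9% of all genes. With shRNA 1 the same 4 genes parted. P4HB, at 112 and 94.9 FPKM, fell (−0.54, SE 0.11, adjusted p = 0.0181), as did PDIA4 at 64.4 and 60.6 (−0.52, SE 0.09, adjusted p = 0.0113). PDIA3, at 82.3 and 81.1, and PDIA6, at 36.2 and 34.1, did not pass (0.08 and 0.23). The shRNAs differed by 1.197 for P4HB and 1.05 for PDIA4 (SE 0.11 and 0.09, adjusted p = 0.00097 and 0.00084).

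The prolyl isomerases PPIB and FKBP2 did not pass in the planned fit. PPIB measured 43.6 and 41.3 FPKM with shRNA 1 and 42.5 and 29.4 with shRNA 2, below 51.4 in each control. It fell with shRNA 2 in the read-based fit (−0.54, adjusted p = 0.0174), with −0.81 without the first and −0.28 without the second shRNA 2 library, and a pass in 5 of 8 fits without a library. FKBP2 measured 50.9 and 17.96 FPKM in the shRNA 2 libraries, the widest difference between replicates among the 39, and its comparisons have an SE of 0.43.

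Of the 4 translocon genes 3 rose with shRNA 1 and 2 with shRNA 2. SEC61A1 measured 125 and 121 FPKM with shRNA 1 (0.67, SE 0.08, adjusted p = 0.00303) and 87.9 and 84.2 with shRNA 2 (0.16, adjusted p = 0.224), against 75.5 and 78.2 in the controls. All 4 libraries lay above the controls, and the shRNA 1 pair lay highest. SEC63, a J-domain protein that recruits BiP to the channel, measured 7.89 and 8.06 FPKM with shRNA 1 and 7.79 and 9.25 with shRNA 2, against 5.67 and 4.79. It rose with each (0.53 and 0.61, SE 0.13 each, adjusted p = 0.0328 and 0.0204). SSR1, a subunit of the translocon-associated complex, rose with shRNA 1 (0.49, SE 0.13, adjusted p = 0.0420) and was at −0.28 with shRNA 2. SEC61B, the small beta subunit of the channel, was at −0.03 with shRNA 1 and measured 78.4 and 56.1 FPKM with shRNA 2, against 43.6 and 43.5. It passed there by a narrow margin (0.59, SE 0.16, adjusted p = 0.0453), with values of 0.36 without the first and 0.83 without the second shRNA 2 library, and passed in 1 of 8 fits without a library.

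The mannosidase-like EDEM proteins, which mark misfolded glycoproteins for ERAD, divided between the shRNAs. EDEM3 measured 6.34 and 6.03 FPKM with shRNA 1 and 2.00 and 3.05 with shRNA 2, against 2.54 and 2.28 in the controls. It rose with shRNA 1 (1.08, SE 0.17, adjusted p = 0.00789) and was at 0.03 with shRNA 2, and the shRNAs differed by −1.04 (SE 0.17, adjusted p = 0.00741). EDEM2 measured 11.1 and 9.85 FPKM with shRNA 1 (0.31, adjusted p = 0.0776) and 16.2 and 14.6 with shRNA 2 (0.83, SE 0.10, adjusted p = 0.00305). EDEM1 measured 6.26 and 6.99 FPKM with shRNA 1 (0.15, adjusted p = 0.518) and 10.1 and 11.9 with shRNA 2 (0.80, SE 0.14, adjusted p = 0.0104). Both shRNA 2 libraries of EDEM1 and EDEM2 lay above every control and shRNA 1 library.

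The retrotranslocation genes showed HERPUD1 up with each shRNA, though neither call held in every planned fit without 1 library. Its 20 mM controls, shared by both comparisons, differed by 0.26 on the log2 scale, the widest difference among the 39 there. Its log2 fold changes were lowest without the first control, at 0.55 with shRNA 1 and 0.455 with shRNA 2. HERPUD1 measured 17.3 and 16.9 FPKM with shRNA 1 (0.68, SE 0.16, adjusted p = 0.0252) and 14.8 and 17.1 with shRNA 2 (0.59, SE 0.16, adjusted p = 0.0416), all above the controls at 9.30 and 11.4. DERL1, a channel component, measured 5.90 and 6.71 FPKM with shRNA 1 and 11.01 and 11.4 with shRNA 2, against 10.7 and 11.2. It fell with shRNA 1 (−0.71, SE 0.09, adjusted p = 0.00369) and was at 0.03 with shRNA 2, while its paralogue DERL2 stayed between 5.93 and 7.33 FPKM in all 8 libraries. OS9 fell with shRNA 1 (−0.49, SE 0.13, adjusted p = 0.0397) and SYVN1 rose (0.39, SE 0.11, adjusted p = 0.0475), and neither passed with shRNA 2 (0.28 and 0.14). The SYVN1 call also did not hold in every planned fit without 1 library. SEL1L measured 7.88 and 9.26 FPKM with shRNA 1 and 6.71 and 8.59 with shRNA 2 (0.42 and 0.27) and passed only with shRNA 1 in the read-based fit. SELENOK and SELENOS, selenoproteins of the ER membrane, were at −0.47 and −0.31 with shRNA 1 and at 0.24 and −0.38 with shRNA 2, without passing in the planned fit. In the read-based limma fit SELENOK passed with shRNA 1 (−0.50, adjusted p = 0.042). WFS1 was at 0.32 and 0.23 (SE 0.14 each).

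As an average of both shRNAs, with the same sign required for each alone, 12 of 39 members passed (30.8%), 10 up and 2 down, beside 17.3% of all genes (9.56% up and 7.77% down). In the fit to genes of at least 5 FPKM the shares were closer, 36.8% of 38 members and 29.0% of all genes (15.8% up and 13.2% down). DNAJC3 (1.08), SEC63 (0.57), EDEM2 (0.57), EDEM3 (0.56), HERPUD1 (0.63), EDEM1 (0.47), DNAJB9 (0.43), SEC61A1 (0.42), PDIA3 (0.38) and PDIA6 (0.37) rose on the log2 scale, and DNAJB11 (−0.59) and MANF (−0.48) fell. HSPA5 was at 0.04 (SE 0.11, adjusted p = 0.834) and PDIA4 at 0.01, averages of values with opposite signs. The averages of EDEM3, DNAJB9 and DNAJB11 stem from shRNA 1, since with shRNA 2 these genes were at 0.03, 0.02 and −0.02. The difference between shRNAs passed for all 3. It also passed for EDEM1, EDEM2, PDIA3 and SEC61A1, each called with 1 shRNA alone in the planned fit. With shRNA 1 and shRNA 2, EDEM1 was at 0.15 and 0.80 and EDEM2 at 0.31 and 0.83. PDIA3 was at 0.08 and 0.67, and SEC61A1 at 0.67 and 0.16. PDIA6 and MANF were called with shRNA 2 alone, and their difference between shRNAs did not pass. Quantile normalization gave 8 up and 4 down in place of 10 and 2. Leaving out the first or the second 20 mM control gave 1 and 0, and leaving out either shRNA 1 library gave 4, while the calls over all genes went from 2815 to 686 and 748 and to 1514 and 1610.

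The share of each library's reads that fell on the 40 genes gives their weight in the transcriptome. It was 0.735% and 0.738% in the 20 mM controls, 0.760% and 0.835% at 0 mM, 0.717% and 0.718% with shRNA 1, and 0.895% and 0.905% with shRNA 2. Chaperones of the HSP70 and HSP90 families with their cofactors took 0.246% ± 0.0064 of reads in the controls, 0.307% ± 0.030 at 0 mM, 0.218% ± 0.0035 with shRNA 1 and 0.316% ± 0.011 with shRNA 2 (SD, n = 2). The calnexin cycle and isomerases took 0.343%, 0.342%, 0.309% and 0.425% in the same order. The translocon took 0.0638%, 0.0577%, 0.0980% and 0.0659%, so its largest share was with shRNA 1, while those of the chaperones and isomerases were smallest there. ERAD genes took 0.0564% in the controls and 0.0619% to 0.0653% in the other groups. These shares follow the most abundant members and were not tested.

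**Figure D4:**
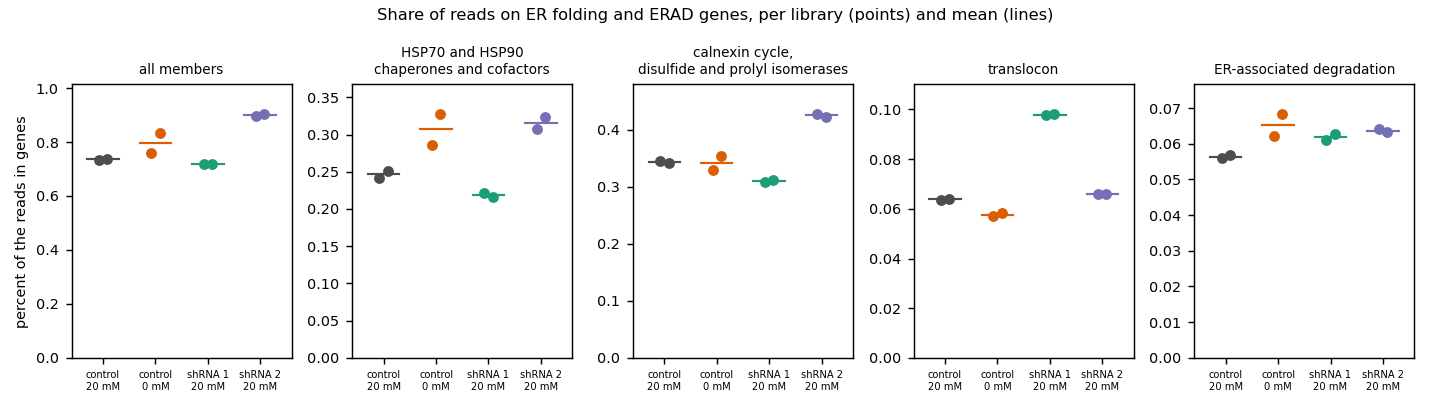
Percent of the reads in genes that fell on all 40 genes and on 4 roles (panels, vertical axes from 0), per library (points) with the mean of 2 (lines) in the 4 groups. Both shRNA 2 libraries hold the largest share over all 40 genes (0.895% and 0.905%), and both shRNA 1 libraries the largest translocon share.

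Of the 10 members with an ERSE or ERSE-II match, HSPA5 and HERPUD1 passed at 0 mM in the read-based fit, beside 0.172% of all genes. In the planned fit 0 of the 10 passed, and both read-based calls depended on single libraries. Of the 27 members with a promoter but no such match, 0 passed in either limma fit (4 at an unadjusted p under 0.05 in each). The other 8 with a match had planned log2 fold changes from −0.11 (XBP1) to 0.32 (CRELD2). With shRNA 2 all 10 stood above 0 and 5 rose in the planned fit (CRELD2, HERPUD1, HSP90B1, HSPA5 and PDIA6), beside 8 that rose among the other 27 and 11.1% of all genes. Of the whole set 33 of 39 stood above 0 there, and of all genes 50.7%. With shRNA 1, HERPUD1 rose and CALR fell among the 10, beside 7 up and 4 down among the 27 and 9.35% up and 10.5% down over all genes. No test was made of these counts.

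Other genes of the pathway were read from lists in addition to the 40. Of 10 tested genes of the PERK arm and the integrated stress response, 0 passed at 0 mM in the planned limma fit, with 4 at an unadjusted p under 0.05. In the read-based fit 2 rose, beside 0.154% of all genes. DDIT3 (CHOP), a transcription factor of ER stress, measured 3.66 and 5.67 FPKM at 20 mM and 17.8 and 15.4 at 0 mM (read-based log2 fold change 1.86, adjusted p = 0.0128). Of its exon bases 27.2% overlap MARS on the opposite strand, which reached 36.3 FPKM. TRIB3, an inhibitor of signalling downstream of CHOP, measured 11.8 and 12.5 against 20.8 and 21.7 FPKM (0.81, adjusted p = 0.0199). Both rose without overlap between the groups, as did 19.1% of all genes. Both calls were lost when either 20 mM control was left out. In the average of both shRNAs, with 17.3% of all genes passing, 2 of the 10 rose (EIF2AK3 and SESN2) and 5 fell (ATF3, ATF4, CHAC1, PPP1R15A and PPP1R15B). EIF2AK3, the gene of PERK itself, measured 3.15 and 2.92 FPKM in the controls, 5.48 and 6.27 with shRNA 1 and 5.56 and 5.88 with shRNA 2 (0.75, SE 0.10, adjusted p = 0.00357). ATF3, a stress transcription factor, measured 14.4 and 13.9 FPKM in the controls, 5.63 and 6.20 with shRNA 1 and 3.75 and 2.89 with shRNA 2 (−1.47, SE 0.10, adjusted p = 0.00058).

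In the other lists 0 genes passed at 0 mM in either limma fit, and 0 to 4 genes per list had an unadjusted p under 0.05 in the planned fit. Those with the smallest p were ATF6B (0.29), FAM8A1 (−0.44), the signal recognition particle subunit gene SRP54 (−0.27), the oligosaccharyltransferase subunit gene RPN1 (−0.20), PDIA5 (0.21) and CALCOCO1 (0.25), all with an adjusted p of at least 0.429. In the average of both shRNAs, where 17.3% of all genes passed, 1 of 12 factors of sensor processing and ER stress rose and 2 fell, among them TRAF2 (−0.62), the adaptor of IRE1. Of 20 further oxidoreductases and prolyl isomerases 3 rose and 2 fell (25.0%), of 26 further ERAD genes 4 rose and 1 fell (19.2%), and of 20 genes of targeting, translocation and signal peptidase 3 rose (15%), the last pair of shares near that of all genes. FAM8A1, a partner of HRD1, rose most clearly in the ERAD list, from 4.99 and 4.73 FPKM to 9.86 and 11.5 with shRNA 1 and 11.5 and 13.8 with shRNA 2 (1.10, SE 0.11, adjusted p = 0.00162). SRP9, a subunit of the signal recognition particle, rose by 0.45. Of 11 oligosaccharyltransferase genes 1 rose and RPN2 fell (−0.78), at 47.6 and 37.7 FPKM with shRNA 1 and 113.5 and 126 with shRNA 2, beside 123 in each control. Of 5 ER-phagy receptors CALCOCO1 rose (0.30). ERO1A, which reoxidises disulfide isomerases, and ATL3 had the smallest p in their lists but opposite signs with the shRNAs: ERO1A was at −0.06 with shRNA 1 and 1.47 with shRNA 2, and ATL3 at −0.18 and 1.49.

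Reads of overlapping genes limit some values, since whether counting used strand is not stated. Of the 40 genes 21 share exon bases with another gene, 5 of them over 20% in sum. PPIB shares 27.2% with SNX22 and PDIA6 25.2% with ATP6V1C2, both on the opposite strand and at most at 1.68 and 1.84 FPKM. SYVN1 shares 7.2% with FAU on the same strand, which reached 180 FPKM. Pseudogenes with the names of members were lowly expressed for XBP1 (XBP1P1, at most 1.33 FPKM) and higher for PDIA3 (PDIA3P2, at most 10.7 FPKM), so reads of these 2 genes may be split.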

How the data were processed

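Total RNA of the 8 libraries was reverse transcribed with random hexamers at a sequencing company, per the labels' protocols. The authors deposited FPKM per gene. The submitters' processing notes name the tools DESeq2 1.20.0, HISAT2 2.0.5 and featureCounts 1.5.0-p3, with no role given. All 58735 identifiers, names, positions and exon lengths of the table match GENCODE 29 on GRCh38. Multiplied by gene length, 100% of deposited FPKM fall on whole steps of their library (within 0.001 of a step), which gives back the reads. They sum to 14252316 to 19975449 per library, 0.932 to 1.05 times the library size the authors divided by; 0 reads allows up to 3 reads, for counting error only.

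From the FPKM, log2(FPKM + 1) was fitted for the 16239 genes with at least 1 FPKM in at least 2 libraries (limma 3.58.1 in R 4.3.3, eBayes with trend), with 4 group means over all 8 libraries, which share 1 estimate of the spread. Fold changes on this scale understate those of genes with low FPKM. The threshold was a p-value of 0.05 after Benjamini-Hochberg adjustment over all genes. The read-based fit is limma voom on those reads for the same genes, scaled to the library sizes of the authors.

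The members and the lists were chosen with earlier results of these data known. Values per library are given for HSPA5, HERPUD1, XBP1, ATF6 and ERN1 and up to 8 members with the smallest planned p in each of 5 comparisons, and for other lists the gene with the smallest p is named. DDIT3, TRIB3, EIF2AK3 and FKBP2 were given with values after these were seen. Alternatives were other pseudocounts, filters and normalizations, protein-coding genes only, only the groups compared, the replicate number as a block, the read-based fit and leaving out each library. Replicate numbers did not pair the libraries (correlations of deviations −0.03 to 0.18 between groups). Promoter sequences are from RefSeq, GRCh38.p14. Protein sequences, and the C-terminal retention signal read from them, were not analysed here.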

Additional observations from a re-analysis of the deposited data

Results flagged for a closer look

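The response to the MAPKAPK2 shRNAs differed between shRNA 1 and shRNA 2, by the limma test of the difference itself, for 20 of the 39 tested genes. Values are log2 fold changes of shRNA 2 minus shRNA 1. Lower with shRNA 2 were EDEM3 (−1.04), DNAJB9 (−0.82), SSR1 (−0.77) and SEC61A1 (−0.51). Chaperones and cofactors higher with shRNA 2 were SDF2L1 (1.16), DNAJB11 (1.14), HSPA5 (0.83), HSP90B1 (0.76) and HYOU1 (0.41). In the calnexin cycle and among the isomerases P4HB (1.2), PDIA4 (1.05), CALR (0.86), PDIA3 (0.59) and UGGT1 (0.55) were higher. SEC61B (0.63) and the ERAD genes OS9 (0.76), DERL1 (0.74), SELENOK (0.71), EDEM1 (0.65) and EDEM2 (0.52) were higher too. MAPKAPK2 mRNA itself was lower with shRNA 2 than with shRNA 1 (log2 fold change −0.95, limma adjusted p = 0.00124), and the part of this difference in the values above was not tested.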

How the results depend on the processing

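Counts of members that passed are given in place of the reported 0 (glucose), 14 (shRNA 1), 15 (shRNA 2), 20 (between shRNAs) and 12 (average of both). The read-based fit gave 2 for glucose, and with the replicate block 2 for glucose, 22 for shRNA 1 and 19 for the average. Without the filter on low values they were 9 for shRNA 1, 8 for shRNA 2 and 7 for the average, and with only the groups compared 3 for shRNA 2 and 8 between shRNAs. The planned fit with the replicate block gave 0, 15, 17, 21 and 13; the numbers do not pair the libraries. Without 1 library the planned counts ran from 0 to 0, 5 to 20, 2 to 15, 10 to 21 and 0 to 16, and the read-based counts from 0 to 3, 9 to 25, 9 to 22, 16 to 24 and 3 to 21 (3 and 4 without the first or the second 20 mM control). Calls over all genes moved too. They were 0, 3222, 3055, 3602 and 2815 in the planned fit, and without 1 library ran from 0 to 1, 942 to 4054, 1015 to 3026, 1335 to 3473 and 686 to 3437, or by reads from 0 to 196, 2043 to 5627, 2082 to 4632, 2416 to 5260 and 1614 to 4833. With only the groups compared they were 961 for shRNA 2 and 1136 between shRNAs, and without the filter 2223, 2161 and 1808 of 35173 for shRNA 1, shRNA 2 and the average. The read-based fit gave 28 for glucose, and with the block 80 for glucose, 4974 for shRNA 1 and 4385 for the average. The lone library of a group is then assumed to vary like the other groups.

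Signs reversed for some values that did not pass. Over the fits without 1 library, ATF6 for glucose ran from −0.061 (without the second 0 mM library, read-based −0.07) to 0.139. ERN1 for glucose ran from −0.075 to 0.052 without the first 20 mM control (read-based 0.075), and was 0.037 (read-based 0.06) without the first 0 mM library. XBP1 with shRNA 1 ran from −0.147 to 0.005 without the first 20 mM control (read-based 0.006) and was 0.033 under quantile normalization. Without the first shRNA 2 library ATF6 with shRNA 2 was 0.107 (read-based 0.123), from a lowest value of −0.151, and HERPUD1 between shRNAs 0.002 in both fits, from −0.194. The cause was not tested. With 2 libraries a group, single libraries decide many calls.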
